A study of Mus musculus with 20 samples.

Results

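Of the 45705 genes measured, 9 are SOX transcription factor genes that are best known outside the oligodendrocyte lineage, and the values of these 9 genes were examined here across 5 sorted neural populations and 4 batches. They were chosen by gene name as Sox1, Sox2, Sox3, Sox4, Sox5, Sox6, Sox9, Sox11 and Sox21, before any filter on level, and all 9 passed that filter. The cells came from the periventricular zone of Swiss Webster mouse pups at postnatal day 5 and were separated by FACS on CD133, LeX (CD15), CD140a (the PDGF receptor alpha) and NG2. Neural stem cells (NSCs) were CD133+ LeX+ CD140a- NG2-, and the 4 progenitor populations were all NG2+ and CD133-. BNAP/GRP1 cells were LeX+ CD140a-, GRP2/MP3 cells were LeX- CD140a-, GRP3 cells were LeX- CD140a+ and PFMP cells were LeX+ CD140a+. Each population has 1 library in each of the 4 batches, 20 libraries in all, and a library is named by its population and batch (NSC 3). A sort pooled pups of both sexes, so 1 library is a pool of animals, no population was defined by a transgene, and no group was treated. The RNA of few cells was amplified from its polyA end before sequencing, the study left some of its sorting experiments out of the series, and in bulk RNA fewer cells of a type and less RNA per cell cannot be told apart. Values are RPKM, reads scaled to gene length and to library size. Because the RNA was amplified from its polyA end and the gene lengths used are not given, levels of different genes can be compared only roughly.

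SOX proteins bind DNA through a high mobility group (HMG) box and act together with partner factors, and they are grouped by the likeness of that box. The SOXB1 factors Sox1, Sox2 and Sox3 maintain neural stem and progenitor cells, and the SOXB2 factor Sox21 counteracts them and favours differentiation. The SOXC factors Sox4 and Sox11 are known for newly generated neurons and committed precursors. The SOXD factors Sox5 and Sox6 have no activation domain of their own and modulate other SOX proteins, also in oligodendrocyte precursors, and the SOXE factor Sox9 is known for radial glia, astrocytes, ependymal cells and the acquisition of stem cell properties.

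The shared HMG box is shown because it is the part of these transcripts where short reads could be assigned to the wrong member. The stretches below are the 75 bases, the length of 1 read, that begin at the same place of the box in each gene, read from the GENCODE vM21 transcripts (GRCm38) in the sense of the gene, with capitals marking each base that differs from Sox1.
Sox1, chr8:12396511-12396585, plus strand: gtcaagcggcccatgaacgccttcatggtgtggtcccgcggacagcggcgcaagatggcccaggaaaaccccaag
Sox2, chr3:34650542-34650616, plus strand: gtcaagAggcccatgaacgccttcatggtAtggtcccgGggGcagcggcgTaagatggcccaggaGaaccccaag
Sox3, chrX:60892927-60893001, minus strand: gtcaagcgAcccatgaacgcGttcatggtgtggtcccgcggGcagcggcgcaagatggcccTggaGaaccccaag
Sox21, chr14:118235540-118235614, minus strand: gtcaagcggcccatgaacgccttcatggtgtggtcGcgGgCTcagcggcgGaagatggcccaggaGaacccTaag
Sox4, chr13:28952773-28952847, minus strand: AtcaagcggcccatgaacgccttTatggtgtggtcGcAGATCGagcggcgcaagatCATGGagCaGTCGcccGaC
Sox11, chr12:27342190-27342264, minus strand: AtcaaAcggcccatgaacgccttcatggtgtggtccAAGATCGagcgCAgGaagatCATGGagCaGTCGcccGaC
Sox5, chr6:143841205-143841279, minus strand: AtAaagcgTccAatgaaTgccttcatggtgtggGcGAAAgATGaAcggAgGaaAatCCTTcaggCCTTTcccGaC
Sox6, chr7:115489694-115489768, minus strand: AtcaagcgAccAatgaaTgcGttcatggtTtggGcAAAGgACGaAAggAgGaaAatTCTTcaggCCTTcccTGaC
Sox9, chr11:112782897-112782971, plus strand: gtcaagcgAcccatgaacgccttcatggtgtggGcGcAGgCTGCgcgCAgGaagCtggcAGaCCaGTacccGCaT
The genes of a group look alike in these lines. Over this window Sox3, Sox2 and Sox21 were identical to Sox1 at 70, 69 and 68 of 75 bases, whereas Sox4 was identical at 54, Sox9 at 53, Sox11 at 51, Sox5 at 47 and Sox6 at 45. Over 210 bases of the box the most alike pairs were Sox1 with Sox2 and Sox4 with Sox11 (90.5% identity each), Sox5 and Sox6 shared 82.9%, and the least alike pair, Sox6 with Sox9, shared 56.7%.

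The longest uninterrupted runs that members have in common lie in coding sequence, and 3 of the longest are shown because the part of a read that lies in one of them matches both genes.
Sox4 and Sox11 (chr13:28952749-28952796 and chr12:27342166-27342213): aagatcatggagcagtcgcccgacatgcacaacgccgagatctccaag
Sox1 and Sox3 (chr8:12396727-12396771 and chrX:60892741-60892785): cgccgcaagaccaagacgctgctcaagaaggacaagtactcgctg
Sox1 and Sox2 (chr8:12396577-12396614 and chr3:34650608-34650645): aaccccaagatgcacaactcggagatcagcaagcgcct
Sox4 and Sox11 shared 48 bases, Sox1 and Sox3 shared 45, and Sox1 with Sox2 shared 38, as did Sox2 with Sox21. None of the 36 pairs of members shared a run as long as 75 bases, and the median over pairs was 20 bases. Whether reads with mismatches were shared between members in the authors' counting was not tested. All of Sox1, Sox2, Sox3, Sox21, Sox4 and Sox11 are genes of a single exon, Sox9 has 3 exonic blocks on chromosome 11 (112782224 to 112787760), and Sox5 (chromosome 6, 143828425 to 144781977) and Sox6 (chromosome 7, 115470872 to 116038796) have 25 exonic blocks each. Opposite-strand genes overlap exons of 3 members, Gm26735 over 2616 exonic bases of Sox4, Gm4675 over 713 of Sox21 and Sox5os1 over 1330 of Sox5, and a miRNA gene, Gm25239, overlaps 86 bases of Sox1 on the same strand. Whether the counting used strand is not given in the sources used here, so reads of these overlapping genes cannot be told apart from those of the members. Sox2 lies inside the long noncoding gene Sox2ot, which shares no exonic base with it.

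Libraries of 1 batch and a single further library stood apart from the rest, and results that rest on them are given with and without them. Relative depth, read from the ratios of low values between libraries, was lowest in BNAP/GRP1 4, at 0.0395 of the depth of BNAP/GRP1 1, and highest at 1.41 of it in the batch 3 library of the same population. The 4 progenitor libraries of batch 3 correlated with each other at 0.966 to 0.970 (Pearson's r of log2(RPKM + 1) over all genes) whatever their population, and NSC 3 correlated with them at 0.940 to 0.943 and with the other NSC libraries at 0.630 to 0.774. All 5 libraries of batch 3 held microglia markers (13 genes, summed level 2641 to 2963 RPKM) and lung epithelium genes (10 genes, 1115 to 1261 RPKM), against at most 127 RPKM of the lung genes in any other library. In BNAP/GRP1 4 the median over all genes was 8.30 RPKM, against at most 2.02 in the other 19 libraries, and 80.3% of genes lay between 1 and 100 RPKM. That library correlated with the others at only 0.280 to 0.507.

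The labels were checked against defining markers. Pdgfra, the CD140a gene, ran from 96.9 to 803 RPKM in GRP3 and PFMP outside batch 3 and was 3.41 and 3.84 RPKM in GRP3 3 and PFMP 3, against 0.731 to 24.1 RPKM in the other 3 populations. Prom1, the CD133 gene, ran from 9.56 to 84.2 RPKM in NSC and from 0.255 to 35.5 RPKM in the progenitors, so its ranges overlapped. The 10 ependymal markers summed to between 1735 and 16950 RPKM in NSC, and to between 4.61 and 577 RPKM in the progenitors. The 13 microglia markers summed to between 182 and 9301 RPKM in BNAP/GRP1 and to between 856 and 8706 RPKM in GRP2/MP3, with Aif1 and C1qa above 0 in every library.

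The level of the 9 genes varied with the batch, and batch 3 held the lowest library of every member in every population. The summed level of the 9 genes was 448, 354, 45.7 and 517 RPKM in NSC 1 to 4. It ran from 4.46 to 9.72 RPKM in the 4 progenitor libraries of batch 3 and from 39.4 to 760 RPKM in the other 12 progenitor libraries. In BNAP/GRP1 4 all 9 members lay between 9.26 RPKM (Sox6) and 18.6 RPKM (Sox5), between the 55.8th and the 82.6th percentile of all genes in that library, and there the SOX genes Sox14, Sox15, Sox17, Sox18 and Sox30, which are not members, also lay between 10.2 and 13.9 RPKM. Sox9 and Sox2 had the highest NSC means on the log2(RPKM + 1) scale (6.22 ± 1.91 and 6.37 ± 1.39, SD, n = 4), and Sox6 had the lowest (1.80 ± 1.16, SD, n = 4).

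**Figure D1:**
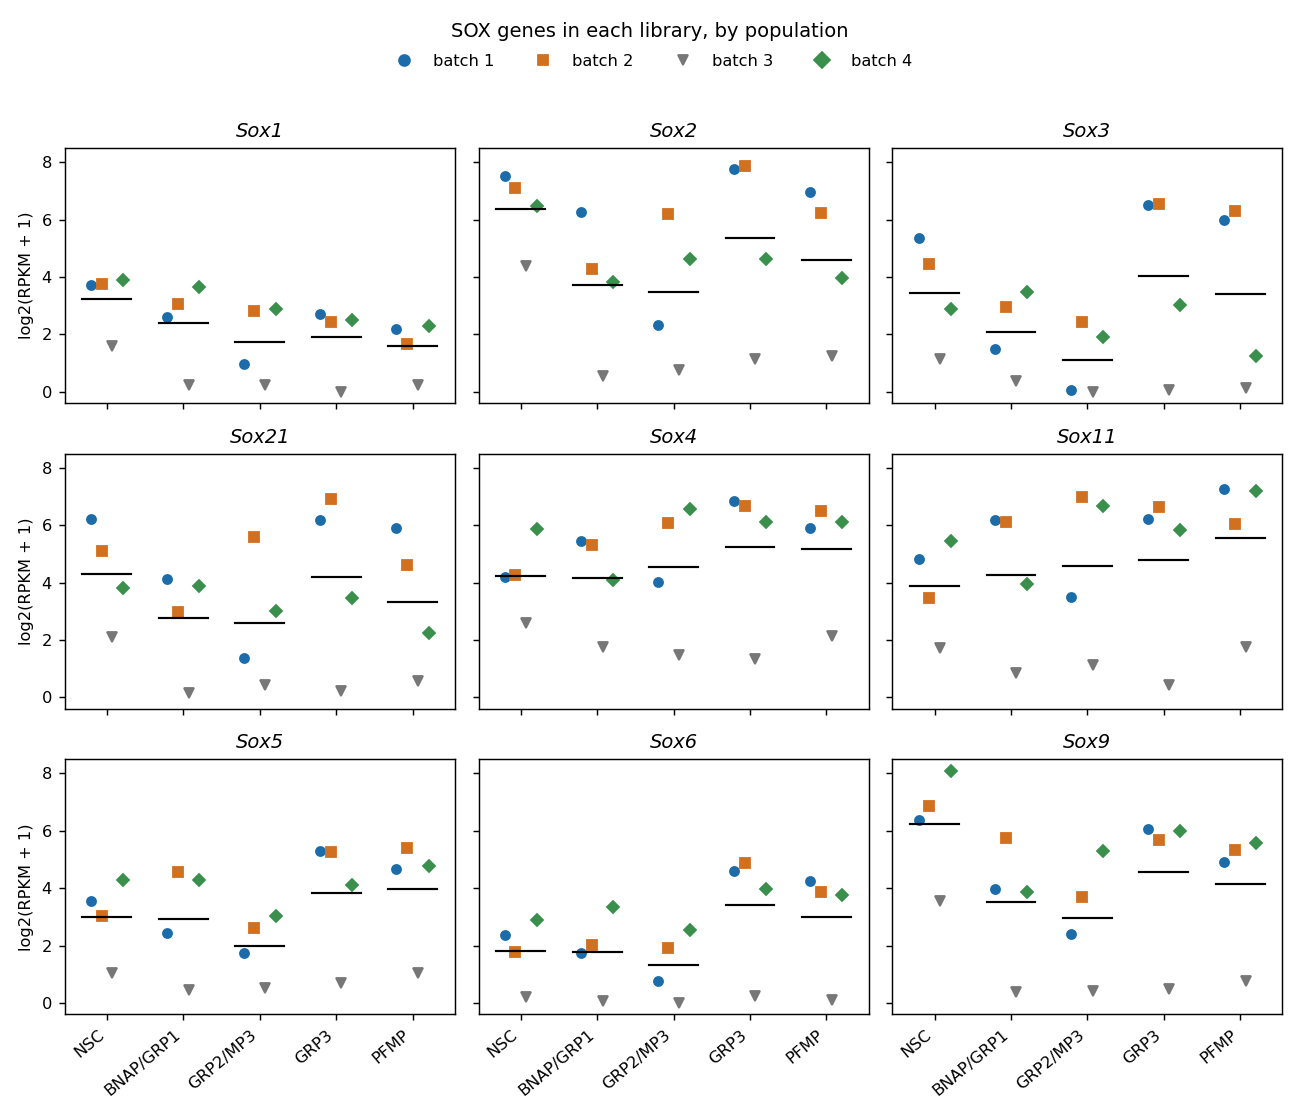
Each panel plots 1 SOX gene as log2(RPKM + 1) in the 20 libraries, with 4 points per population marked by batch and a horizontal line at the mean of the 4. The batch 3 point is the lowest in every column, and Sox9 has its highest column in NSC (mean 6.22) while Sox6 has it in GRP3 (mean 3.42).

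By mean log2(RPKM + 1), NSC was the highest population for Sox1, Sox2, Sox21 and Sox9. GRP3 was the highest for Sox3, Sox4 and Sox6, and PFMP was the highest for Sox5 and Sox11. GRP2/MP3 was the lowest population for Sox2, Sox3, Sox21, Sox5, Sox6 and Sox9, PFMP for Sox1, BNAP/GRP1 for Sox4 and NSC for Sox11. For no member did neighbouring populations in that order differ by more than the larger of their SDs. The widest spread of population means belonged to Sox9, at 3.26 on the log2 scale between NSC and GRP2/MP3, and the narrowest to Sox4, at 1.08.

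Each progenitor was compared with NSC by limma on log2(RPKM + 1) with Benjamini-Hochberg adjustment over the 27614 genes tested, first without and then with the batch as a block. Without the block, none of the 9 members passed an adjusted p of 0.05 in any comparison with NSC. Over all genes the share called was 1.14% for PFMP, 1.05% for GRP3, 1.12% for GRP2/MP3 and 0.76% for BNAP/GRP1, nearly all of them lower than in NSC. Of the 45 member tests in the comparisons with NSC and of CD140a+ with CD140a- progenitors, 2 had an unadjusted p under 0.05, beside 4.41 to 5.90% of all genes. With batch as a block, which compares libraries of the same batch, 5 of the 45 passed and 20 had an unadjusted p under 0.05, beside 1.44 to 3.08% of all genes called in either direction and 10.9 to 14.4% at an unadjusted p under 0.05. The block left every fold change as it was and lowered its SE, for Sox9 from 1.42 to 0.55. The median log2 fold change of all genes against NSC was -0.20 for PFMP, 0.05 for GRP3, -0.08 for GRP2/MP3 and 0.38 for BNAP/GRP1, beside member medians of -0.04, 0.58, -1.52 and -0.87, and member changes are to be read against those shifts.

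Sox9 had the most negative fitted difference from NSC of the 9 members in each of the 4 progenitor populations, but not in every alternative fit. Without the flat BNAP/GRP1 4, Sox2 was more negative in BNAP/GRP1 (-2.68 against -2.26 for Sox9, under the block). Without batch 3 Sox1 was more negative in GRP3 (-1.26 against -1.21). With library weights so were Sox1 in GRP3 (-0.99 against -0.58), Sox3 in BNAP/GRP1 (-2.93 against -2.75) and Sox2 in PFMP (-2.01 against -1.89). The NSC libraries read 81.9, 115, 10.8 and 271 RPKM of Sox9 in batches 1 to 4. The BNAP/GRP1 libraries read 14.7, 53.2, 0.286 and 13.7 RPKM, and the GRP2/MP3 libraries 4.26, 12.03, 0.343 and 38.7 RPKM. Both were below NSC in 4 of 4 batches. GRP3 read 65.4, 49.9, 0.393 and 62.2 RPKM, and PFMP 29.1, 39.3, 0.701 and 46.8 RPKM, again lower than NSC in 4 of 4 batches. The Sox9 range of each of the 4 progenitor populations overlapped with that of NSC. The overlap came only through NSC 3, since the other NSC libraries, from 81.9 RPKM, were above all 16 progenitor libraries, up to 65.4 RPKM. The share of all genes that separate from NSC once NSC 3 is set aside was not counted.

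The fitted Sox9 change from NSC was -2.72 ± 1.42 (log2 fold change ± SE, n = 4 per population) in BNAP/GRP1 (limma adjusted p = 0.866 without the block) and -3.26 ± 1.42 in GRP2/MP3 (adjusted p = 0.699). With batch as a block Sox9 was lower in GRP2/MP3 (adjusted p = 0.00122), BNAP/GRP1 (adjusted p = 0.00782) and PFMP (-2.07 ± 0.55, adjusted p = 0.0474), and it missed the threshold in GRP3 (-1.67 ± 0.55, adjusted p = 0.144). In the same fit 2.91% of all genes were lower in GRP2/MP3, 2.02% in BNAP/GRP1, 2.61% in PFMP and 2.33% in GRP3. The Sox9 calls in BNAP/GRP1 and GRP2/MP3 held when each of the 20 libraries was left out in turn under the block, with adjusted p of at most 0.0304 and 0.00803. The PFMP call held in 6 of those 20 fits, and the fits that lost it include each one without an NSC or a PFMP library. Without batch 3 the blocked adjusted p was 0.0125 for GRP2/MP3, 0.0719 for BNAP/GRP1 and 0.236 for PFMP. The ependymal markers moved with Sox9: under the block all 10 were lower in PFMP and 9 of the 10 in each other progenitor population, and Foxj1, which defines ependymal cells, ran from 33.1 to 352 RPKM in NSC and from 0.00417 to 9.42 RPKM in the progenitors. Of the 12 neural stem cell and radial glia markers 2 were lower in BNAP/GRP1, 2 in GRP2/MP3 and 3 in both CD140a+ populations, with Id4 lower in each. Of the 10 astrocyte markers S100b was lower in the CD140a- progenitors, and Aqp4 and Gja1 in GRP3. In GRP2/MP3 5 of the 8 pericyte markers and 3 of the 13 microglia markers were higher, and the pericyte markers summed to between 123.8 and 7341 RPKM there against 4.16 to 115.9 RPKM in NSC. The part of these lists in the Sox9 and Sox2 differences was not tested.

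**Figure D2:**
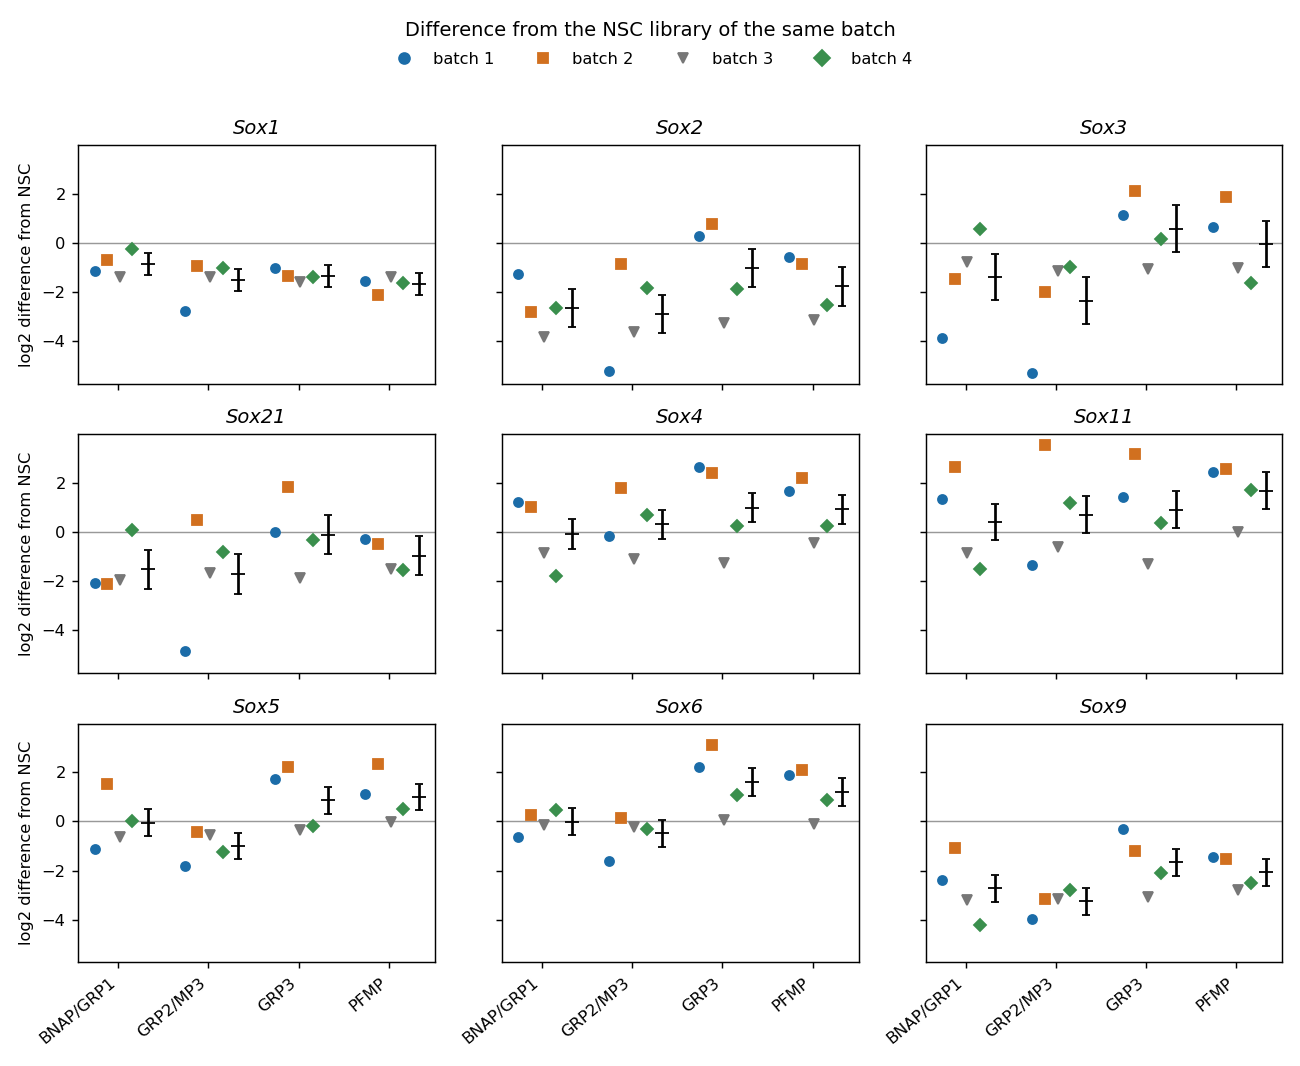
Each panel plots, for 1 SOX gene, the log2(RPKM + 1) of a progenitor library minus that of the NSC library of the same batch, with points marked by batch and a black bar at the fitted log2 fold change with its SE under the batch block. All 16 Sox9 points and all 16 Sox1 points lie below 0, while the Sox11 points in PFMP lie at or above 0 and the Sox6 points in GRP3 at 0.04 or higher.

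The SOXB1 genes did not behave alike. Sox1, an early neural factor, read 12.2, 12.6, 2.04 and 14.1 RPKM in NSC 1 to 4. It read between 0.00264 and 11.7 RPKM in the progenitors and lay below NSC in all 16 comparisons within a batch. The within-batch differences ran from -0.24 to -2.76 on the log2 scale. The fitted Sox1 changes from NSC under the block were -1.67 ± 0.44 (log2 fold change ± SE) for PFMP, -1.52 ± 0.44 for GRP2/MP3, -1.35 ± 0.44 for GRP3 and -0.87 ± 0.44 for BNAP/GRP1. None passed, and the closest was PFMP with adjusted p = 0.0507 by limma. Without BNAP/GRP1 4, the library of flat values, the blocked adjusted p of Sox1 was 0.0319 in GRP2/MP3 and 0.0201 in PFMP. Without batch 3 it was 0.182 for PFMP, 0.274 for GRP2/MP3 and 0.486 for GRP3. With both the block and median-of-ratios scaling Sox1 was called lower in GRP2/MP3, GRP3 and PFMP (adjusted p = 0.0428, 0.0482 and 0.0232).

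Sox2, the factor most used to mark neural stem cells, was not confined to NSC. It read 183, 135, 19.8 and 88.1 RPKM in NSC, and 219, 231, 1.19 and 23.6 RPKM in GRP3, so the highest Sox2 libraries were those of GRP3 in batches 1 and 2. PFMP read 123.8, 74.3, 1.36 and 14.4 RPKM, below NSC in 4 of 4 batches. BNAP/GRP1 read 75.7, 18.3, 0.468 and 13.3 RPKM and GRP2/MP3 read 3.97, 73.1, 0.678 and 23.8 RPKM, below NSC in 4 of 4 batches each. With the block Sox2 was lower in GRP2/MP3 (-2.89 ± 0.78, adjusted p = 0.0491) and did not pass in BNAP/GRP1 (-2.64 ± 0.78, adjusted p = 0.101) or PFMP (-1.77 ± 0.78, adjusted p = 0.366). The GRP2/MP3 call held in 6 of the 20 fits that left out a library, and without batch 3 its adjusted p was 0.198. In GRP3 the Sox2 difference was 0.26 and 0.77 in batches 1 and 2 and -3.25 and -1.86 in batches 3 and 4, so its direction depended on the batch.

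The direction of Sox3 in GRP3 and PFMP, and that of the SOXB2 gene Sox21 in GRP3, differed between batches. Sox3 read 89.5, 92.5, 0.0533 and 7.16 RPKM in GRP3 and 61.8, 78.2, 0.0869 and 1.38 RPKM in PFMP. In NSC it read 39.7, 20.9, 1.18 and 6.40 RPKM, and in GRP2/MP3 it was listed at 0 in batch 3 and read 0.0348, 4.42 and 2.77 RPKM in batches 1, 2 and 4. Sox3 was thus above NSC in GRP3 and PFMP in batches 1 and 2 and below NSC in GRP2/MP3 in every batch, and no Sox3 comparison with NSC passed (lowest blocked adjusted p = 0.279, GRP2/MP3). Sox21 read 72.6, 33.2, 3.25 and 12.9 RPKM in NSC and 72.1, 119, 0.160 and 9.97 RPKM in GRP3. It was below NSC in 4 of 4 batches in PFMP, at 59.4, 23.3, 0.489 and 3.73 RPKM, with a fitted difference of -0.96 ± 0.80 that did not pass (blocked adjusted p = 0.805). In the CD140a- progenitors Sox21 read 16.5, 6.83, 0.0994 and 13.6 RPKM in BNAP/GRP1 and 1.56, 46.7, 0.345 and 7.03 RPKM in GRP2/MP3, below NSC in 3 of 4 batches each. Neither Sox21 difference passed, at -1.52 ± 0.80 and -1.7 ± 0.80 (blocked limma adjusted p = 0.381 and 0.444). The BNAP/GRP1 library above NSC, by 0.07 on the log2 scale, was the flat BNAP/GRP1 4. The study, by DESeq2, lists Sox21 as downregulated only in BNAP/GRP1. Sox3 read 1.78, 6.81, 0.294 and 10.01 RPKM in BNAP/GRP1.

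The direction of the SOXC genes depended on the batch in most populations. Sox11, known for immature neurons, read 27.0, 10.02, 2.32 and 43.1 RPKM in NSC and 151, 64.9, 2.34 and 144 RPKM in PFMP, above NSC in every batch although by only 0.01 on the log2 scale in batch 3. GRP2/MP3 read 10.3, 127, 1.196 and 100.5 RPKM, and BNAP/GRP1 read 70.8, 68.8, 0.819 and 14.4 RPKM. The direction of Sox11 in those CD140a- populations therefore differed between batches. The fitted Sox11 change in PFMP was 1.68 ± 0.75 (log2 fold change ± SE) with blocked adjusted p = 0.378, and the other populations ran from 0.41 to 0.91. Sox4, its close relative, read 17.4, 18.2, 5.05 and 56.9 RPKM in NSC and 114, 100.1, 1.51 and 67.3 RPKM in GRP3. PFMP read 58.1, 88.0, 3.45 and 68.0 RPKM. BNAP/GRP1 read 42.5, 38.6, 2.399 and 16.0 RPKM and GRP2/MP3 read 15.4, 66.4, 1.81 and 92.7 RPKM, each above NSC in 2 of 4 batches. Sox4 was above NSC in batches 1, 2 and 4 in both CD140a+ populations and below it in batch 3, and no Sox4 change passed with or without the block (GRP3, 1.00 ± 0.60, blocked adjusted p = 0.685).

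The SOXD genes had their highest means in the CD140a+ populations. Sox6 read 23.2, 28.1, 0.193 and 14.5 RPKM in GRP3 and 18.1, 13.6, 0.0827 and 12.4 RPKM in PFMP. It read 4.15, 2.38, 0.157 and 6.38 RPKM in NSC, 2.34, 3.01, 0.0528 and 9.26 RPKM in BNAP/GRP1, and 0.699, 2.76, 0.00370 and 4.89 RPKM in GRP2/MP3. Outside batch 3 the lowest CD140a+ library (12.4 RPKM) was above the highest of the other 3 populations (9.26 RPKM, the flat BNAP/GRP1 4). Of the 13 oligodendrocyte precursor markers, Olig1 (109.7 against 64.2 RPKM), Lhfpl3 (58.95 against 21.59 RPKM), Pdgfra, Olig2, Sox10, Gpr17, Ptprz1 and Bcan separated in the same way. Cspg4 (4.695 against 9.636 RPKM), Nkx2-2, C1ql1, Matn4 and Neu4 did not. The share of all genes that separate so was not counted. Sox5 read 38.1, 37.0, 0.615 and 16.1 RPKM in GRP3 and 24.4, 40.8, 1.05 and 26.6 RPKM in PFMP. In NSC Sox5 read 10.8, 7.18, 1.08 and 18.3 RPKM, and in BNAP/GRP1 4.39, 22.5, 0.359 and 18.6 RPKM, so its populations overlapped outside batch 3. GRP2/MP3, at 2.34, 5.07, 0.418 and 7.18 RPKM, was below NSC in 4 of 4 batches for Sox5 (-1.01 ± 0.54, blocked adjusted p = 0.58). Against NSC neither passed. The Sox6 change was 1.61 ± 0.56 in GRP3 (blocked adjusted p = 0.183) and 1.19 ± 0.56 in PFMP (adjusted p = 0.429), and the Sox5 change was 0.85 ± 0.54 and 0.99 ± 0.54 (adjusted p = 0.729 and 0.561).

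The mean of the CD140a+ populations was then set against the CD140a- progenitors, since these gates divide the NG2+ cells. Without the block limma called no gene in this comparison, 0% of those tested, although 1219 genes (4.41%) had an unadjusted p under 0.05, and Sox6 had the lowest unadjusted p of the members (1.65 ± 0.74, unadjusted p = 0.0378, adjusted p = 0.895, limma). With the block Sox6 was higher in the CD140a+ populations (1.65 ± 0.40, adjusted p = 0.0453), as were 0.442% of all genes, and the median change of all genes was -0.22. The within-batch differences of Sox6 were 3.17, 2.41, 0.14 and 0.89 in batches 1 to 4, all above 0. The call held in 5 of the 20 fits that left out a library, and without BNAP/GRP1 4 the adjusted p was 0.0592. Without batch 3 Sox6 passed with the block (2.16 ± 0.46, adjusted p = 0.0148) and without it (adjusted p = 0.0199), and with the block Sox5 (1.80 ± 0.46, adjusted p = 0.0423) and Sox3 (2.88 ± 0.76, adjusted p = 0.0496) passed too. More genes passed in those fits, 3.2% of all genes with the block and 2.23% without it, in either direction.

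**Figure D3:**
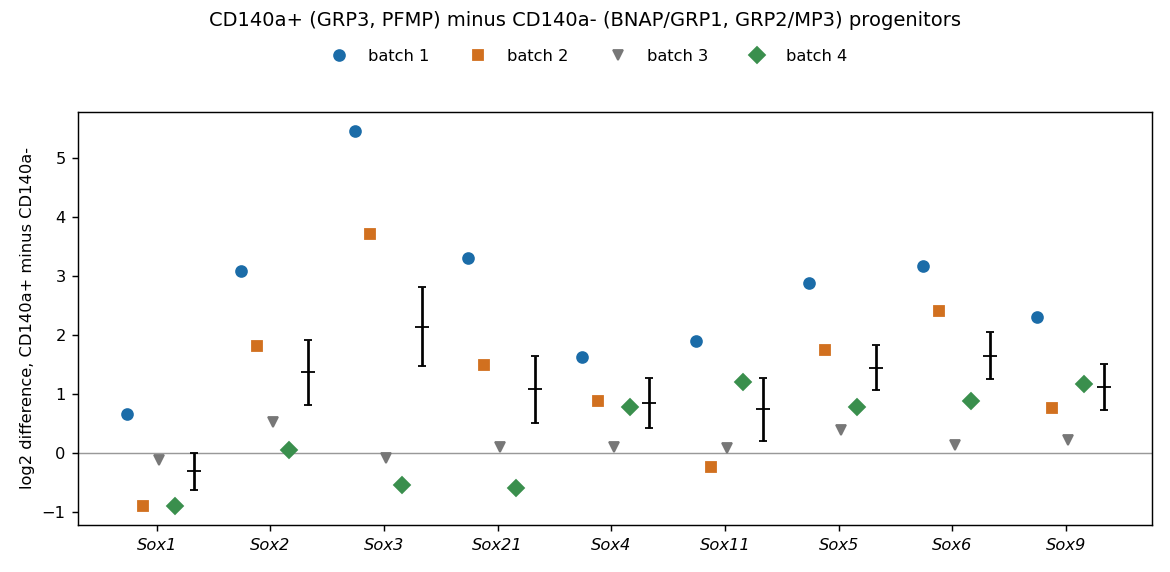
For each SOX gene the points give, per batch, the mean log2(RPKM + 1) of GRP3 and PFMP minus the mean of BNAP/GRP1 and GRP2/MP3, and the black bar gives the fitted difference with its SE under the batch block. Sox6 and Sox5 are above 0 in every batch, Sox3 is spread from 5.47 in batch 1 to -0.55 in batch 4, and the batch 3 points lie between -0.12 and 0.53.

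Sox5 (2.89, 1.74, 0.39 and 0.78 in batches 1 to 4), Sox2, Sox4 and Sox9 were also higher in the CD140a+ libraries in 4 of 4 batches without passing over all batches, at adjusted p = 0.0646 for Sox5, 0.289 for Sox2, 0.436 for Sox4 and 0.185 for Sox9 under the block. Sox1 was the only one of the 9 with a fitted difference below 0, at -0.31 ± 0.31, and its values were below 0 in 3 of 4 batches. The members' median difference was 1.12. In the same comparison 8 of the 13 oligodendrocyte precursor markers were higher and 12 of the 13 microglia markers were lower under the block. The precursor markers summed to between 18.2 and 4514 RPKM in GRP3 and between 19.01 and 3370 RPKM in PFMP, against 5.05 to 231 RPKM in BNAP/GRP1 and 3.16 to 304 RPKM in GRP2/MP3. The part of these lists in the member differences was not tested. In the 6 direct comparisons between progenitor populations limma without the block called no member and no gene (0% of those tested in each, with 84 to 1355 genes at an unadjusted p under 0.05). Of the 54 member tests, 0 had an unadjusted p under 0.05 without the block and 11 with it, where the share of all genes at that level ran from 0.945% (GRP3 minus PFMP) to 18.9% (PFMP minus BNAP/GRP1), no gene was called and the lowest adjusted p of a member was 0.263.

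The ratio of 2 members within a library does not depend on its scaling, and by 3 of the ratios to Sox9 NSC did not overlap with the progenitors. These ratios were chosen after the values had been seen and carry no test. Sox11 over Sox9 was 0.330, 0.0871, 0.215 and 0.159 in NSC 1 to 4. It was 0.899 or higher in all 16 progenitor libraries and reached 10.5 in GRP2/MP3 2. Sox4 over Sox9 was between 0.159 and 0.467 in NSC and between 0.726 and 8.38 in the progenitors, and Sox5 over Sox9 was between 0.0625 and 0.131 in NSC and between 0.186 and 1.57 in the progenitors. None of these 3 ratios overlapped between NSC and progenitors, and this held in batch 3, where the levels themselves were near 0. Sox9, the shared denominator, was itself below NSC in every progenitor population in every batch. The share of all genes that separate in this way when divided by Sox9 was not counted. The separation is therefore not shown to be particular to the SOXC and SOXD genes. Sox6 over Sox9 overlapped through batch 3, at 0.0108 in GRP2/MP3 3 against 0.0146 to 0.0507 in NSC, and was between 0.0566 and 0.674 in the other 15 progenitor libraries. Sox2 over Sox9 ran from 0.325 to 2.23 in NSC and from 0.309 to 6.08 in the progenitors, and Sox21 over Sox2 ran from 0.146 to 0.398 in NSC and from 0.135 to 1.02 in the progenitors, so those ratios overlapped.

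**Figure D4:**
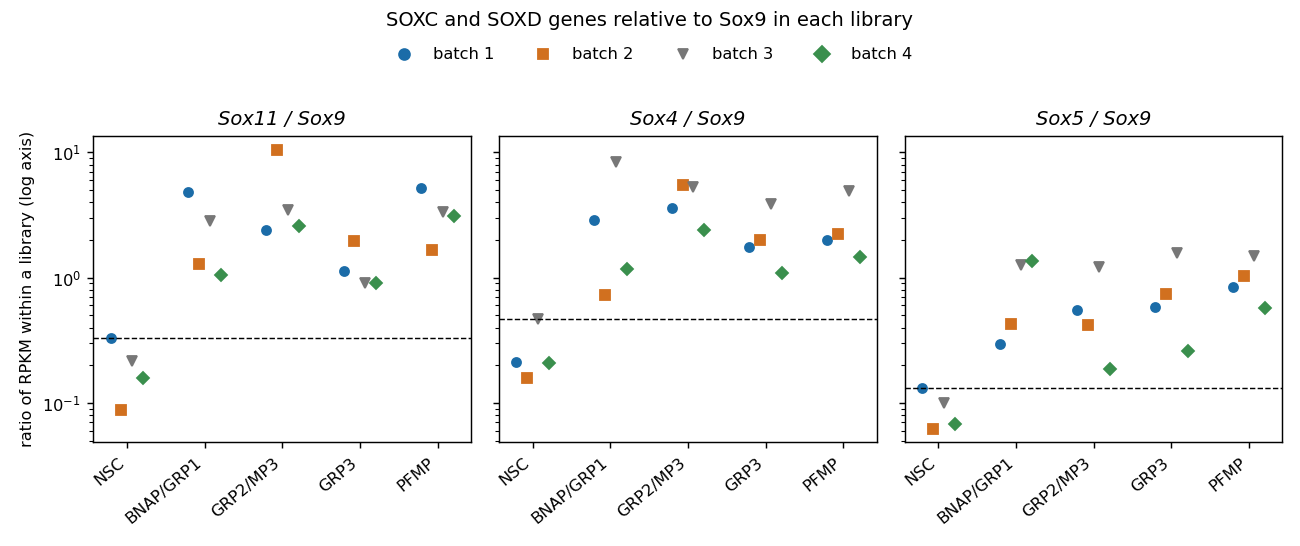
The panels plot the RPKM of Sox11, Sox4 and Sox5 divided by that of Sox9 in the same library, on a log axis, for 4 libraries per population marked by batch, with a dashed line at the highest NSC library. Every progenitor point is above the line, the closest being 0.186 for Sox5 in GRP2/MP3 4 against 0.131 in NSC 1.

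The mix of SOXB genes also differed between libraries. Sox3 over Sox2 was between 0.304 and 1.05 in GRP3 and PFMP with the exception of the batch 3 libraries and PFMP 4, at 0.0450 to 0.0953. It was between 0.0599 and 0.218 in NSC, between 0.0235 and 0.753 in BNAP/GRP1 and at most 0.117 in GRP2/MP3. Sox1 over Sox2 was between 0.0667 and 0.159 in NSC and between 0.0189 and 0.0289 in GRP3 and PFMP of batches 1 and 2. In batch 4 the same populations lay above the NSC range, at 0.197 in GRP3 and 0.268 in PFMP, and in batch 3 they read 0.00223 and 0.120. BNAP/GRP1 ran from 0.0664 to 0.881 and GRP2/MP3 from 0.0829 to 0.269.

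After batch means were subtracted, the highest Pearson's r of the 36 pairs over 20 libraries were 0.892 for Sox2 with Sox21, 0.885 for Sox5 with Sox6 and 0.843 for Sox4 with Sox11, followed by 0.832 for Sox3 with Sox6, and the median pair was at 0.480. Within SOXB1 the values were lower, at 0.693 for Sox2 with Sox3, 0.631 for Sox1 with Sox2 and 0.298 for Sox1 with Sox3. Sox1 was also above the median pair with Sox9 (0.641) and Sox21 (0.559). It was near or below 0 with the SOXC and SOXD genes, at -0.199 with Sox4, -0.163 with Sox11, -0.116 with Sox6 and 0.014 with Sox5. Without subtracting batch means the lowest pair was at 0.585, and these values describe points that share libraries and depth. Among 9897 genes with a mean of at least 5 RPKM, those most like Sox9 were Fhl1 (0.934), Sncaip (0.923) and Ttyh1 (0.922). Those most like Sox6 were Gpt2 (0.992) and Fstl5 (0.968), and those most like Sox5 were Sema5b (0.946), Nova1 (0.943) and Phlpp1 (0.931). For Sox11 they were the replication enzyme subunit Rrm2 (0.927), Cdk5r1 (0.901) and the spindle gene Tpx2 (0.900), and for Sox4 they were Ppp3ca (0.918), Sept3 (0.899) and Ubqln2 (0.898). For Sox2 they were Psip1 (0.903), Ankrd6 (0.901) and the neurotrophin receptor Ntrk2 (0.894), for Sox21 Nr2f1 (0.965), Fam98b (0.941) and Mex3d (0.933), for Sox3 Kbtbd11 (0.960), Pcsk6 (0.953) and Pcdh10 (0.940), and for Sox1 the RNA-binding stem cell gene Msi2 (0.933), Gpc4 (0.896) and Nme7 (0.895). The r without batch centring was 0.468 for Ubqln2 with Sox4 and at least 0.761 for all the others named.

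The rest of the SOX family and the partner factors give the frame for these values. Of the 11 SOX genes that are not members 9 were tested (Sox7, Sox8, Sox10, Sox12, Sox13, Sox14, Sox15, Sox17 and Sox18), and none passed without the block. Sox30 and Sry did not pass the filter on level. The study, by DESeq2, lists Sox12 among the transcription factors upregulated only in GRP3. In the fit used here Sox12 did not pass in GRP3 (1.54 ± 0.55, blocked limma adjusted p = 0.203). Under the block the oligodendrocyte factors Sox10 (4.19 ± 0.99, adjusted p = 0.0238) and Sox8 (2.88 ± 0.66, adjusted p = 0.0207) were higher in GRP3 than in NSC, and Sox10 was higher in PFMP (3.82 ± 0.99, adjusted p = 0.0427). Sox10 and Sox8 were also higher in CD140a+ than in CD140a- progenitors (3.30 ± 0.70 and 2.10 ± 0.47, adjusted p = 0.0377 and 0.0415). Their levels in GRP3 were 185, 92.2, 1.19 and 55.9 RPKM for Sox10 and 27.3, 29.9, 0.709 and 37.6 RPKM for Sox8, so GRP3 and PFMP held Sox6 and Sox5 in the same libraries as Sox10. Of the 8 partner factors (Pou3f1, Pou3f2, Pou3f3, Pou3f4, Pax6, Nfia, Nfib and Nfix) none passed in any of the comparisons with NSC or between CD140a+ and CD140a- progenitors, with or without the block. Nfia and Nfib, which act with Sox9 in gliogenesis, read 47.8, 37.8, 5.50 and 262 RPKM and 174, 41.9, 9.27 and 102 RPKM in NSC. In PFMP they read 59.5, 59.2, 0.646 and 141 RPKM and 301, 74.9, 3.18 and 60.3 RPKM, within the NSC range outside batch 3 for Nfia and above it in batch 1 for Nfib.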

How the data were processed

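The 20 libraries (5 populations in each of 4 batches) were compared through the RPKM values that the authors deposited for 45705 genes. Per the labels, the submitters' processing notes name FastQC 0.11.9, cutadapt 3.4, STAR 2.6.1, Salmon 1.9.0 and DESeq2 1.26.0 with GRCm38. The gene lengths and read totals behind the RPKM are not given in the sources used here, so absolute depth is unknown and relative depth limits low values. Genes with at least 1 RPKM in 4 or more libraries (27614) were tested with limma 3.58.1 in R 4.3.3 on log2(RPKM + 1) with a trended prior, all 5 populations in 1 fit and Benjamini-Hochberg adjustment. Fold changes on this scale understate those of low genes. The labels call the replicate number a batch, so libraries of a number are paired; deviations from population means correlated within a batch (median r 0.262 to 0.769) and not between (median -0.204), and the blocked fit is given where it changes a call. Members and lists were chosen with earlier results of these data known. All 9 members, the other SOX genes and partner factors were named, plus the 3 genes most like each member by r, of which 1 is not reported here. On simulated data for GRP3 minus NSC over 27614 genes, 185 of 200 genes shifted by 6 on the log2 scale were recovered, and 10 unshifted genes were called. The simulation held no batch structure and its shift was larger than any member change reported here. It therefore does not show whether changes of the members' size would be found. Alternatives were another pseudocount (0.1), filters, scalings, prior, samples, library weights, the block, and leaving out libraries or batches. Positions and sequences are from GENCODE vM21.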

Additional observations from a re-analysis of the deposited data

Results flagged for a closer look

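In 9 of the 45 sets of 4 libraries (1 member in 1 population), the lowest library lay apart from the other 3, with a gap, as a share of the whole range of log2(RPKM + 1), above Dixon's 95% critical value for 4 samples. Chance flags about 1 in 20 independent sets. These 45 sets share libraries and the members correlate with each other, so the count is not a test against chance. In all 9 the library apart was that of batch 3. The gap was 0.917 of the range for Sox1 in NSC and 0.898 for Sox1 in GRP3. For the SOXC genes it was 0.863 for Sox4 in GRP3, 0.863 for Sox4 in PFMP and 0.873 for Sox11 in GRP3. For the SOXD genes it was 0.834 for Sox5 in PFMP and 0.877 for Sox6 in PFMP, and for Sox9 it was 0.931 in GRP3 and 0.862 in PFMP. Of the 9 sets, 8 were CD140a+ populations and 1 was NSC.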

How the results depend on the processing

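No fit that left out 1 library without the batch block, and none that altered the pseudocount, the filter, the prior or the scaling alone, called any member. With the replicate block the pairing gave 1 call in BNAP/GRP1, 2 in GRP2/MP3, 1 in PFMP and 1 between CD140a+ and CD140a- progenitors, and with the block and median-of-ratios scaling 1, 3, 1 and 1, plus 1 in GRP3. Beside these, the block called 1.44 to 3.08% of all genes, and the block with scaling 1.16 to 3.37%. Leaving out batch 3 gave 1 call in GRP2/MP3 and 1 between CD140a+ and CD140a- progenitors, or 1 and 3 with the block as well. The shares of all genes called were 1.95% and 2.23%, or 2.96% and 3.2% with the block. Library weights, which ranged from 0.0636 for BNAP/GRP1 4 to 10.2 for GRP3 1, gave 3 calls in GRP3, 3 between CD140a+ and CD140a- progenitors and 8 in the direct comparisons, in a fit that called 17.7% and 9.06% of all genes in the first 2 and up to 13.9% in the direct ones. Leaving out 1 library, with the block (added after seeing the data) or without it, gave 0 to 2 calls in BNAP/GRP1, 0 to 2 in GRP2/MP3, 0 to 2 in PFMP, 0 to 2 between CD140a+ and CD140a- progenitors and 0 in GRP3 and in the direct comparisons. The cause of these differences was not tested.

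Of the 45 fold changes of members, 34 kept their direction under all alternatives, among them each Sox9 change and the Sox6 and Sox5 differences between CD140a+ and CD140a- progenitors. The other 11 were reversed at least once. Between CD140a+ and CD140a- progenitors Sox1 was 0.09 with library weights (-0.67 to 0.01 with 1 library left out). Against NSC, Sox2 in GRP3 was 0.62 with library weights (-1.86 to 0.39), and Sox3 in GRP3 ran from -0.25 to 1.9 with 1 library left out. Sox3 in PFMP was 0.25 with quantile normalization, 0.28 without batch 3 (0.28 also with the block) and 0.49 without batch 4 (-1.01 to 1.06). Sox21 in GRP3 was 0.16 with quantile normalization, 1.05 with library weights and 0.49 without batch 3, with or without the block (-1.01 to 1.22). In BNAP/GRP1, Sox4 was 0.78 with library weights, 0.17 without batch 3, with or without the block, and 0.48 without batch 4 (-0.62 to 0.72). There Sox5 was 0.04 with quantile normalization, 0.31 without batch 1 and 0.14 without batch 3, with or without the block (-0.69 to 0.78), Sox6 was 0.20 without batch 1 and 0.03 without batch 3, with or without the block (-0.54 to 0.56), and Sox11 was -0.34 without batch 2 (-0.30 to 1.54). In GRP2/MP3, Sox4 was -0.19 (-0.36 to 1.32) and Sox11 -0.24 (-0.10 to 1.85) without batch 2. The lowest progenitor ratio was 2.72 times the highest NSC ratio for Sox11 over Sox9, 1.55 times for Sox4 over Sox9 and 1.42 times for Sox5 over Sox9, and without batch 3, an alternative chosen after seeing the data, the Sox4 value was 3.42. The low relative depth of BNAP/GRP1 4 and the near-0 levels of batch 3 limit every value that rests on them.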
